A study of Mus musculus with 2 samples.

Results

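The miR-297, miR-466, miR-467 and miR-669 hairpins are a group of rodent microRNA precursors rich in short tandem repeats, and 69 of the 1973 genes counted in the newborn mouse midbrain belong to it. They were chosen by name only: every microRNA gene with a row in both count tables whose GENCODE M21 symbol is Mir297, Mir466, Mir467 or Mir669, alone or followed by letters or a copy number. The group holds 25 miR-466, 21 miR-669, 17 miR-467 and 6 miR-297 hairpins. The samples are 2 libraries of small RNA, with a size range under 30 bases, made from total RNA of 1 midbrain each of pup 1 and pup 3. Both animals are of strain B6NCrl on postnatal day 0, and the labels name no treatment, other age or other tissue to set them against. The labels give both pups the same donor identifier and no sex, so the spread given here is that between the pups as labelled.

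MicroRNAs are cut from hairpin precursors by Drosha and Dicer, and the mature strand, loaded on an Argonaute protein, represses messenger RNAs that pair with its seed, bases 2 to 8. Most of these hairpins lie in 1 intron of Sfmbt2, a Polycomb group gene that is expressed from the paternal copy in early embryos and extraembryonic tissue, where its intronic microRNAs are best known for a role in placental growth. The cluster is known from rodents. Many of its hairpins are near copies of each other, and that bears on how their reads can be counted.

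Of the 69 hairpins, 59 lie on the plus strand of chromosome 2 within a single 62.5 kb intron of Sfmbt2 (GRCm38, 10461473 to 10523944), which is intron 11 or intron 10 of the annotated transcripts. They span 51.6 kb, from Mir466m at 10466663 to Mir669h, which ends at 10518279, with a median gap of 314 bases between neighbours. The other 10 are scattered over 7 chromosomes. Mir466q lies in an intron of Tnik on its own strand. Mir466i, Mir466k, Mir467f, Mir467g and Mir669n lie on the strand opposite to Cdk13, Gm37240, Fxr2, Grk4 and Slc30a7, in that order.

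The repeats are easiest to see in the sequences themselves. RefSeq (GRCm38.p6) gave a mature or hairpin sequence for 9 of the 69 members, all of them outside the Sfmbt2 intron. The 8 mature sequences are shown here 5′ to 3′ to display how repetitive their letters are, with the seed in capitals.

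miR-466q: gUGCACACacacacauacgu
miR-466k: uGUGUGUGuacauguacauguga
miR-466j: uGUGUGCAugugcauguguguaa
miR-466i-3p: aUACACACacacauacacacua
miR-467f: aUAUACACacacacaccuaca
miR-467g: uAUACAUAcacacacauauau
miR-467h: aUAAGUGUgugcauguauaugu
miR-669n: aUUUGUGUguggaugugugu

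They are 20 to 23 bases long and carry 8 different seeds, so the family names do not mark shared seeds among these 8. Of the 8 seeds, 7 occur in no other of the 1738 mature entries in the RefSeq table, and the seed of miR-467h recurs once, in miR-668-5p. These entries hold none of the 59 members in the Sfmbt2 intron, so whether the seeds recur there was not examined. Runs of alternating letters, at least 8 bases long with a period of 2, made up 60.0% of miR-466q and 57.1% of miR-467f, but are absent from miR-466j and miR-467h. The precursors extend the same pattern. Both hairpins shown next have these runs in capitals, the first being an example with a 23-base run and the second one of the few members that share no 20-base stretch with another hairpin.

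Mir466k: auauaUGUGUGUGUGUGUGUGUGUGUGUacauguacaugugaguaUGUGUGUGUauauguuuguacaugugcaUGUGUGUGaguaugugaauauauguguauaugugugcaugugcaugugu
Mir669n: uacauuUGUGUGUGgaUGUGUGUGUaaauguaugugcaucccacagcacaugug

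Mir466k lies on chromosome 3 from 85467377 to 85467498 and Mir669n on chromosome 3 from 115979902 to 115979955, both on the plus strand (GRCm38.p6). Neither had a single count in either pup. Over the whole group, 57 of 69 hairpins (82.6%) held at least 1 run of this kind, against 205 of the 1825 other hairpins with a sequence in GENCODE (11.2%). All 25 miR-466 and all 17 miR-467 hairpins had one, as did 15 of 21 miR-669 hairpins and 0 of 6 miR-297 hairpins. The members were also poor in G and C, with a median GC content of 37.2% against 51.7% over the other hairpins.

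Among the reads assigned to a gene, the group held a small share of the counts, and nearly all of that share came from 6 hairpins. Reads that map to several places are in no gene, so the share and its split among hairpins describe assigned reads and not the whole pool of small RNA. The group held 9781 of the 2337113 own-strand counts on genes in pup 1 and 14085 of 3195277 in pup 3. That is 0.419% (exact Clopper-Pearson 95% interval 0.410 to 0.427) and 0.441% (0.434 to 0.448), or 0.430% ± 0.0158 (SD, n = 2). These intervals cover counting error only, since reads of an amplified library are not independent molecules. Of the 69 members, 9 were detected, with at least 10 own-strand counts in each library, beside 18.2% of all 1973 genes, and those 9 held 99.8% of the group's counts in both pups. All 9 lie in the Sfmbt2 intron. No read of any member was counted on the strand opposite to its gene.

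The miR-467 hairpins carried most of the signal. Of this family 3 of 17 members were detected. Together the 17 held 3390 CPM (own-strand counts per 1000000 on genes) in pup 1 and 3557 CPM in pup 3, or 81.0% and 80.7% of the group's counts. Each read of such a library is a whole small RNA, so levels of hairpins are compared as CPM without division by length.

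Mir467e, on chromosome 2 from 10505721 to 10505807, had 3511 counts in pup 1 and 5464 in pup 3, or 1502 and 1710 CPM. Its mean of 1606 ± 147 CPM (SD, n = 2) put it at rank 84 of 1973 genes. Mir467d, which begins 1822 bases after the end of Mir467e and runs from 10507630 to 10507714, had 2849 and 3737 counts, or 1219 and 1170 CPM. Mir467c, near the other end of the cluster from 10473931 to 10474027, had 1563 and 2165 counts, or 668.8 and 678 CPM. In both pups the order was the same and the values of these 3 did not overlap. By contrast, the 10 copies of Mir467a, the namesake of the family, had 0 counts together in pup 1 and 1 in pup 3, and Mir467b had 0 in both.

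Of the miR-669 hairpins 5 of 21 were detected, at lower levels, and the family held 777 CPM in pup 1 and 834 CPM in pup 3. Mir669o (10514300 to 10514395) had 667 and 994 counts, or 285 and 311 CPM. Mir669l (10468971 to 10469068) had 629 and 929 counts, or 269 and 291 CPM. These neighbours in the order of levels overlapped between pups, and no other pair of adjacent members among the 9 detected did. Mir669c (10509296 to 10509404) followed with 444 and 643 counts, or 190 and 201 CPM.

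Below these 6 hairpins the levels dropped by 8.64-fold in the mean. Mir669e (10467495 to 10467613) had 59 and 64 counts, or 25.2 and 20.03 CPM. Mir669h, the last hairpin of the cluster (10518155 to 10518279), had 13 and 28 counts, or 5.56 and 8.76 CPM. At such counts the interval is wide, 2.96 to 9.51 CPM in pup 1 for Mir669h.

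The miR-466 family, the largest by number, had few counts, 33 in pup 1 and 42 in pup 3 over all 25 hairpins. Mir466n (10513741 to 10513834) alone was detected, with 25 and 37 counts, or 10.7 and 11.6 CPM. No miR-297 hairpin was detected. Mir297a-2 (10472254 to 10472343) came closest with 9 and 10 counts, or 3.85 and 3.13 CPM, and the other 5 miR-297 hairpins had 1 count in all.

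**Figure D1:**
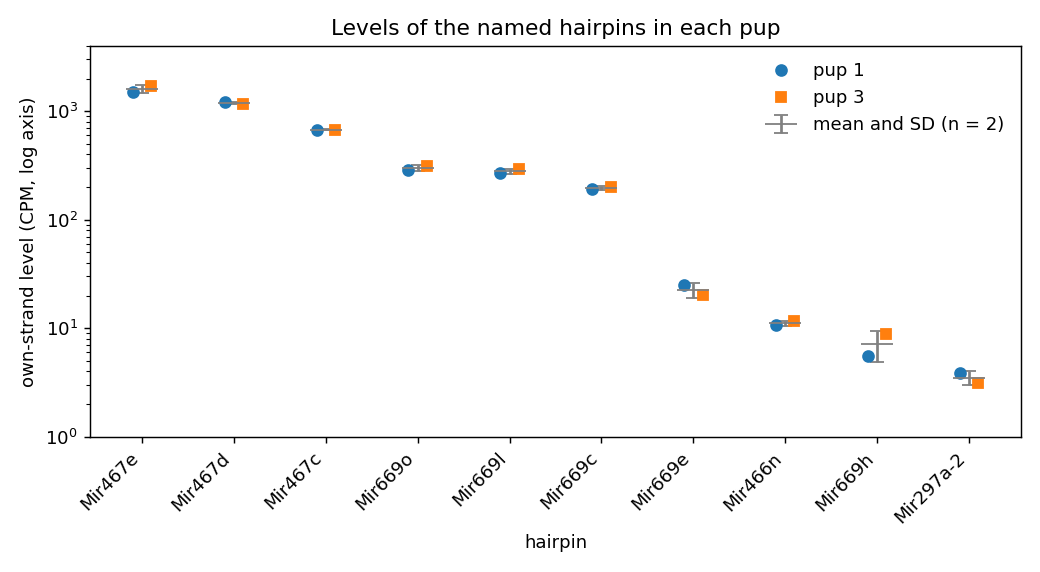
Own-strand level in CPM (log axis) of the 9 detected hairpins and Mir297a-2, with pup 1 as circles, pup 3 as squares and a grey bar for mean and SD (n = 2). Levels fall from 1606 CPM for Mir467e to 3.49 CPM for Mir297a-2, with a gap between Mir669c at 196 CPM and Mir669e at 22.6 CPM.

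The remaining members were at or near 0. Of the 60 not detected, 49 had 0 counts in both pups, or 71.0% of the group against 64.7% of all genes in the tables. For reads that map to 1 place, no count at all still allows up to 3 counts, which is 1.28 CPM at the depth of pup 1 and 0.939 CPM at that of pup 3. This floor covers counting error only and sets no limit on small RNAs that map to several places, whose reads enter no gene. Of the 49 members at 0, 19 have no 20-base stretch of their own and 17 have an identical hairpin elsewhere. Apart from Mir297a-2, the highest was Mir669f with 3 and 8 counts, then Mir466b-3 with 4 and 1. Another 8 members had a total of 1 or 2 counts over both libraries. The 10 members outside the Sfmbt2 intron had 1 count in each pup, both of them from Mir466q.

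Along the intron the counts were split between its ends, with a nearly empty stretch in the middle. The first 13 hairpins, from Mir466m to Mir467c, held 2264 counts in pup 1 and 3176 in pup 3, with 3 detected members. The next 26, from Mir669a-3 to Mir466b-3, cover 29.2 kb and held 4 and 2 counts, with no detected member and 24 of 26 at 0 in both pups. The last 20, from Mir467e to Mir669h, held 7512 and 10906 counts, or 76.8% and 77.4% of the group's total, with 6 detected members. The limits of these stretches were set after the counts were seen.

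The middle stretch also had the least unshared sequence. It holds the 10 copies of Mir467a, of which 7 of the 9 neighbour distances lie between 2413 and 2470 bases. To describe how alike the hairpins are, each was cut into all its windows of 20 bases, and a window was called unshared if it occurs, on either strand, in no other microRNA hairpin of GENCODE M21 at another place. In the middle stretch the median share of unshared windows was 0%, and 19 of 26 hairpins had none. Before it the median was 41.5% and after it 42.3%.

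**Figure D2:**
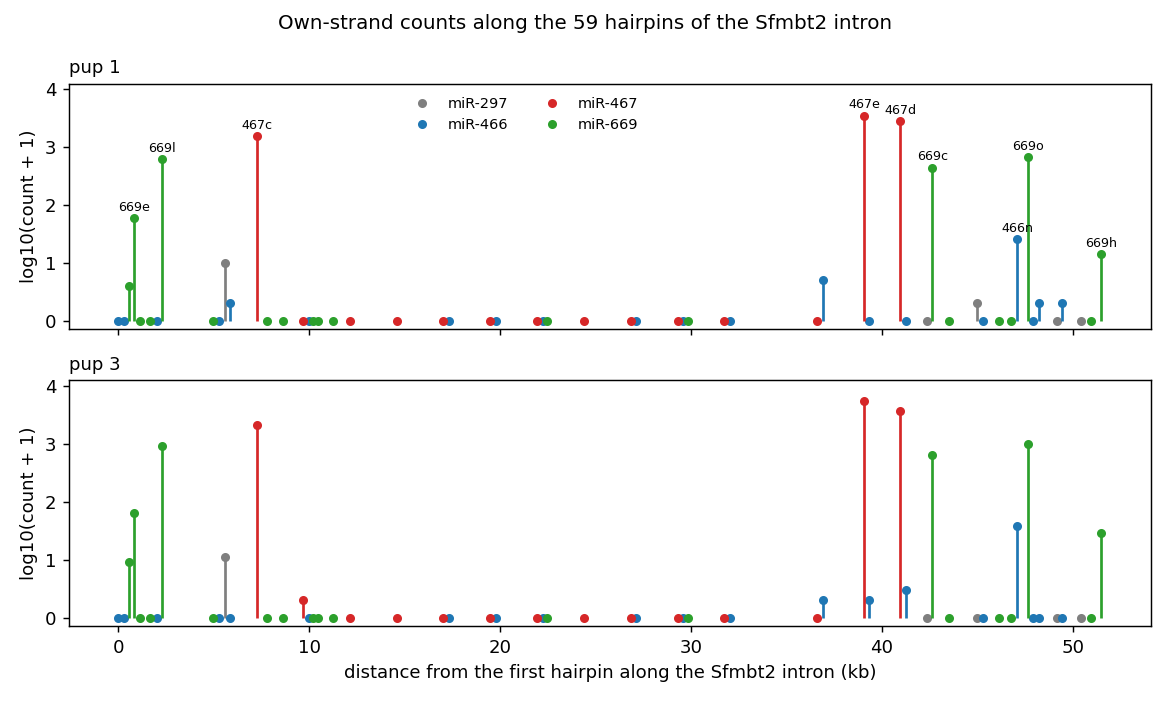
Own-strand counts, as log10(count + 1), of the 59 hairpins against their distance in kb from the first hairpin of the Sfmbt2 intron, pup 1 above and pup 3 below, coloured by family, with the detected hairpins labelled by number and letter. Tall stems stand at both ends, while the 26 hairpins of the middle stretch held 4 counts in pup 1 and 2 in pup 3.

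In the deposited tables, reads that map to several places stand in a row of their own, amounting to 38.7% for pup 1 and 39.8% for pup 3, and no such read enters a gene. A hairpin whose small RNA also occurs elsewhere can therefore lose its reads, and how many of the reads in that row came from this cluster was not tested. The overlap of low counts and shared sequence can be measured, though. Among the 69 members, 20 had no unshared window, and none of these was detected, the highest count being 1. Of the 28 with some unshared windows but at most 50%, 1 was detected, Mir467d. Of the 19 above 50% that still shared a run, 8 were detected. The same measure over the 1825 other hairpins gave 1 of 238, 0 of 270, 72 of 354 (20.3%) and, with no shared run, 277 of 963 (28.8%).

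Identical precursors are the limiting case. A total of 17 members have a hairpin sequence that is letter for letter that of another annotated hairpin, among them 9 of the Mir467a copies, and all 17 had 0 counts in both pups. Their levels are therefore uncertain, as are those of every member that shares a run.

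Shared sequence did not line up with the counts throughout. The 9 detected members had 37.9% to 95% of windows unshared, but 19 other members at or above 37.9% were not detected, 14 of them at 0. Mir466g and Mir669n share no run of 20 bases with any annotated hairpin and had 0 counts. Mir669i, with 73.1% of windows unshared, also had 0. Mir669o shares a run with 56 other hairpins and was the fourth of the group by level. The windows cover the whole hairpin and not the mature strand alone, and copies outside annotated hairpins were not searched.

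**Figure D3:**
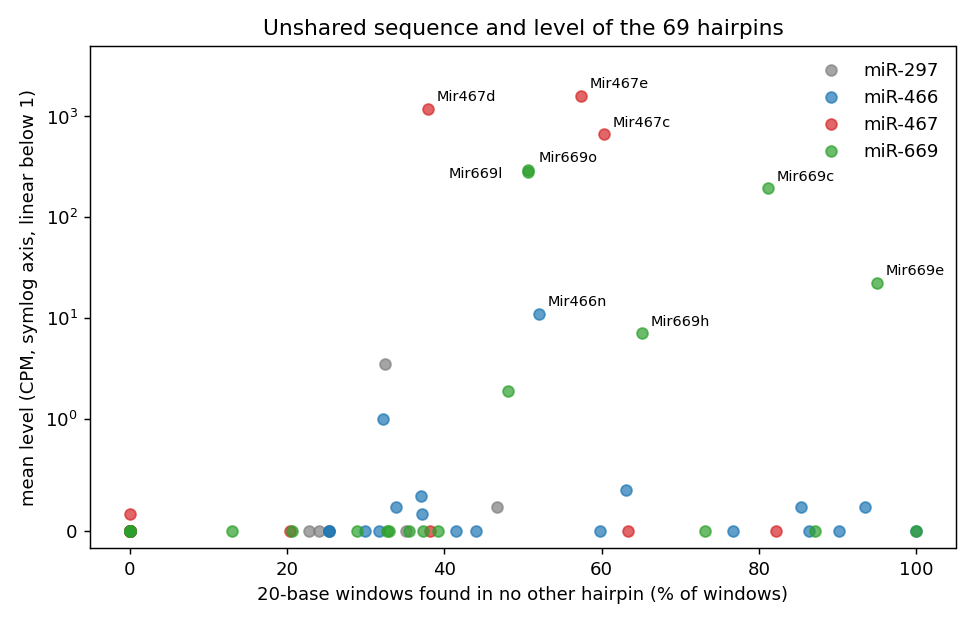
Mean level in CPM (symlog axis, linear below 1) against the percent of 20-base windows found in no other annotated microRNA hairpin, for all 69 members coloured by family. The 9 labelled hairpins lie between 37.9% and 95%, and the points along the lower edge, at 0 counts, run from 0% to 100%.

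Hairpins that sit side by side in the same intron differed sharply in counts. Each miR-467 hairpin of the right end is followed by a miR-466 hairpin. Mir466p starts 198 bases after Mir467e and had 0 and 1 counts beside 3511 and 5464. Mir466 starts 203 bases after Mir467d and had 0 and 2 counts beside 2849 and 3737. Within this second pair the share of unshared windows was alike, 37.0% for Mir466 and 37.9% for Mir467d. In the other pair it was 37.1% for Mir466p and 57.4% for Mir467e. These windows cover whole hairpins and not the mature strands, and the cause of the differences in counts was not tested. Mir466g, 199 bases after Mir669o, had 0 counts in both pups beside 667 and 994.

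The pups were close for these hairpins, as they were for most genes tested. With a mean count of at least 50, 7 members entered a comparison of the libraries over all genes at that level, by a two-sided Fisher's exact test with Benjamini-Hochberg adjustment over all of them. This test compares 1 library with another and has no replicate check. All 7 members lay within 1.5-fold, as did 267 of the 286 genes tested. None of the 7 was called different (adjusted p under 0.05 and at least 2-fold after TMM scaling), beside 1.75% of all genes tested. By the same exact test 1 of the 7 had an unadjusted p under 0.05, beside 172 of the 286 genes tested.

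That member was Mir467e, at 1.10-fold in pup 3 over pup 1 after TMM scaling (95% counting interval 1.05 to 1.15). Its adjusted p of 6.56e-09 by Fisher's exact test belongs to the unscaled totals, with 1502 CPM in pup 1 and 1710 CPM in pup 3. At any fold, 57.3% of the genes tested passed, or 164. Mir467d stood at 0.927-fold (0.883 to 0.974), with an adjusted p of 0.150 by the same exact test, which uses unscaled totals. The ratios of Mir467c, Mir669o, Mir669l and Mir669c lay between 0.979-fold and 1.05-fold. Mir669e had the widest interval at 0.768-fold (0.530 to 1.11).

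The median log2 ratio of the 7 was 0.03, against 0.02 over all genes tested. In absolute size the median was 0.08 for the 7 and 0.15 for all genes tested. With plain CPM in place of TMM scaling 5 of the 7 ratios lay above 1 in place of 4, since Mir467c was higher in pup 3 by CPM. The makeup of the group was also alike, Mir467e, Mir467d and Mir467c together taking 81.0% of its counts in pup 1 and 80.7% in pup 3.

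**Figure D4:**
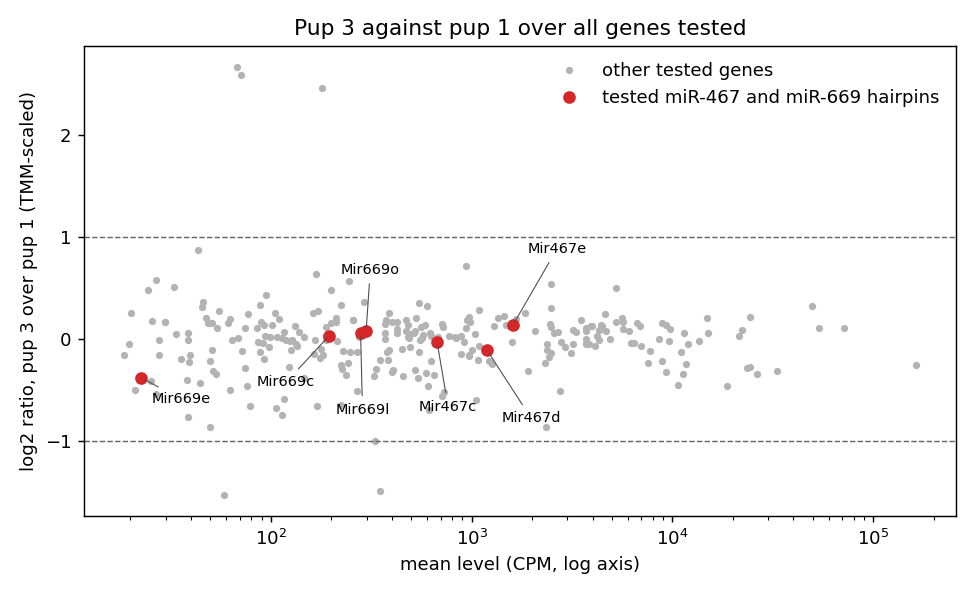
Log2 ratio of pup 3 over pup 1 after TMM scaling against mean level in CPM (log axis) for all genes tested, with the 7 tested members labelled and the dashed lines at 2-fold. The members lie between 0.768-fold for Mir669e and 1.10-fold for Mir467e, all inside the lines.

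A pair of other clusters with many hairpins gives a scale for these levels. The miR-379 cluster of the Dlk1-Dio3 region on chromosome 12, which is imprinted, expressed from the maternal copy and prominent in brain, held 11.9% ± 0.394 of the counts (n = 2) with 30 of 33 detected. In that cluster 29 of 33 hairpins share no run of 20 bases, against 2 of 69 in the repeat-rich group. The miR-290 cluster of chromosome 7, typical of embryonic stem cells and early trophoblast, held 27 counts in pup 1 and 42 in pup 3, or 0.00116% and 0.00131%, with 1 of 7 detected. These are levels set side by side, and no test of their difference was made.

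Since the Sfmbt2 microRNAs are best known from the placenta and early embryo, markers of such cells were read in the same libraries. Of 15 hairpins listed for early embryo, stem cells and trophoblast 12 had a row, 5 were detected and the list held 292 CPM in pup 1 and 321 CPM in pup 3. Mir302d led it at 105 and 110 CPM, while Mir290a and Mir367 were at 0. Neuronal hairpins, which check the labelled tissue, held 44203 and 49205 CPM with 8 of 11 detected, led by Mir137 at 22082 and 26512 CPM. Of the same list, Mir124a-1 was detected at only 11.6 CPM in both pups. Mir124a-2, at 2.14 and 4.38 CPM, Mir124a-3, at 2.14 and 2.19 CPM, and Mir9-2, at 0.856 and 1.25 CPM, were not detected. Of the 11 neuronal hairpins with a row, only 4 share no run of 20 bases with another hairpin. Reads that map to several places enter no gene, so a low count of a hairpin that shares a run sets no limit on its small RNA. Blood markers held 551 and 456 CPM, Mir122 of liver 58.6 and 47.9 CPM and striated muscle markers 19.7 CPM in both pups. Within the blood list, Mir150 stood at 262 and 213 CPM, Mir223 at 164 and 169 CPM and Mir486 at 18.0 and 14.1 CPM. Mir144 was at 20.1 and 29.1 CPM. Mir451a, at 86.4 and 31.0 CPM, was called different between the pups, with a log2 ratio of -1.52. The muscle value came from Mir206 alone, with Mir1a-1, Mir133a-1 and Mir133a-2 at 0 in both pups. Of these 4 muscle hairpins, 1 shares no run of 20 bases with another hairpin, so the limit given for the neuronal hairpins applies to the rest. What part cells of these other types had in the counts of the Sfmbt2 hairpins was not tested. In whole tissue, fewer cells expressing a hairpin and less of it per cell cannot be told apart.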

How the data were processed

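The authors' deposited values are raw read counts per gene, 1 table per library with 3 count columns (either strand, own strand, opposite strand), made from alignments to assembly mm10 with GENCODE M4, per the deposited descriptions. The sources used here name no aligner or counter. The 4 rows that name no gene, 57.2% and 56.7% of reads, stayed out of totals and tests. In each table the 3 columns, these rows included, add up to 1 total, so reads that map to several places enter no gene.

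Own-strand counts were used. IDs were matched without versions to GENCODE M21 (GRCm38, which is mm10), and 1894 of 1973 had a symbol. The 79 without one held 2 counts. The rule matches 81 genes of M21, and 12 of these had no row and are not analysed here. CPM were computed over own-strand counts on genes. TMM scaling came from edgeR 4.0.16, with a prior count of 0.5 for ratios, and Fisher's exact test from scipy 1.17.1. Counting intervals of ratios are exact at 95%. Hairpin sequences for the windows were GENCODE transcripts of 2202 microRNA genes.

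The text names every detected member (at most 25), every called member, every member with most of its reads on the opposite strand, and the highest member of each of the 4 families. Other members are given in counts, and those singled out by name were chosen after their values were seen. The members, lists and alternatives were chosen with earlier results of these data known. The comparison was tested first on simulated counts with counting (Poisson) error only and planted log2 changes of 1.5 or 2 in either direction. Those counts had no other spread between libraries, so they cannot show how the test behaves where such spread exists. The series has 1 group, so no conditions were compared. Alternatives were other count minimums, strands, scalings (including DESeq2 1.42.0 size factors), totals, priors, folds, shared-run lengths and each pup alone.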

Additional observations from a re-analysis of the deposited data

How the results depend on the processing

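The number of detected members was 9 as reported, 13 with at least 1 count in each library, 10 with at least 5 and 7 with at least 50, and 9 to 10 with either pup alone. The share over all genes, 18.2%, is given for the reported minimum of 10 only. The other numbers of members therefore cannot be set against all genes here. The share of counts was 0.430%, and 0.419% to 0.441% with either pup alone. It was 0.415% with either-strand counts and 0.513% when the most abundant gene of the libraries was left out of the totals. Restricted to the 2 members that share no run of 20 bases it was 0%, since neither had a count. Of members without a shared run, 0 of 2 were detected, and 1 of 4 when a run of 25 bases was required. With runs of 16 bases every member shared one, so no value could be given. No member was called different between the pups by Fisher's exact test under any scaling, prior, count minimum (10 or none) or at 1.5-fold. Beside 0 of 7 members, 5 of 286 genes were called under each other scaling and the other prior, and 19 of 286 at 1.5-fold. With a minimum of 10 it was 0 of 9 members beside 10 of 372 genes. With no minimum it was 0 of 20 members beside 10 of 697 genes. No member had an opposite-strand read, so either-strand counts changed only the library total. With either-strand counts Mir467d stood at 1155 CPM and Mir467c at 651 CPM, below their reported means by more than the SD between pups. Their SD was small, at 35.0 CPM for Mir467d and 6.21 CPM for Mir467c. The other 8 named members moved by less than their own SD between pups, as did all 10 with TMM-scaled totals. No paired analysis was possible because the series has 1 group. For reads that map to 1 place, a count of 0 in pup 1 still allowed a level of up to 1.28 CPM. For members whose sequence is shared, a 0 sets no such limit, since reads that map to several places enter no gene.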

Other observations

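The Sfmbt2 intron holds more annotated hairpins than the named families. A further 48 microRNA genes with predicted-gene symbols lie in the intron on the same strand, which makes 107 in all. They had 2 counts in pup 1 and 4 in pup 3, 45 of the 48 being at 0 in both pups, and none had a count on the opposite strand. The 3 with any count are Gm22239 (10510461 to 10510563) with 2 and 1, Gm22925 (10510791 to 10510892) with 0 and 2, and Gm25263 (10509885 to 10509984) with 0 and 1. All 3 lie between Mir669c and Mir297b, and they were picked out after their values were seen.

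These 48 hairpins had a median of 11.1% of 20-base windows unshared, and 22 of them had none. Another 12 had more than 50% of their windows unshared, a range in which 8 of 21 members of the named families were detected. None of the 12 was detected, and the highest count among them was 2. The mature sequence of miR-467h, which lies outside the intron and had 0 counts in both pups, also occurs letter for letter in 2 other annotated hairpins, Gm25510 and Gm26303, neither of which belongs to the group.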
